A study of Mus musculus with 6 samples.

Results

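The glypicans and syndecans are the families of cell-surface proteoglycans that carry heparan sulfate chains. Their 10 mouse genes, Gpc1 to Gpc6 and Sdc1 to Sdc4, were taken by symbol from the 54446 genes of the deposited gene table. UMIs (unique molecular identifiers, each standing for 1 captured RNA molecule) were found in called cells for 8 of the 10 genes, and 7 had enough of them to be tested. The 6 libraries came from GL261, an established mouse glioma line, and from GL261-GSCs, glioblastoma stem cells derived from it. The 2 GL261 libraries were from cells kept in differentiation medium with FCS (foetal calf serum), and the 4 GL261-GSCs libraries from cells kept in a defined GSC medium, so the medium and the cell state cannot be told apart. Both groups were dissociated with Accutase, exposed to a lysis buffer with detergent and captured with a 10x Genomics 5' kit. The labels speak of cells or nuclei without saying which were loaded. The labels do not say whether replicates came from separate cultures, so p-values measure only the spread between these libraries, which may be technical.

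Glypicans are held in the membrane by a glycosylphosphatidylinositol anchor, whereas syndecans span it and have short cytoplasmic tails that bind PDZ proteins and the actin cytoskeleton. The heparan sulfate chains of both families bind growth factors, morphogens and matrix proteins and present them to signalling receptors. In the brain and in glioma they are known as co-receptors for FGF, Wnt and Hedgehog proteins and for pleiotrophin.

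The 250 bases upstream of the start site are shown for 3 genes with a difference between the groups. These are the ones with an entry among RefSeq's promoter sequences (GRCm38.p6). In all, 7 of the 10 genes had an entry. Capitals mark matches to TATAA (TATA box), TGANTCA (AP-1) and the NF-kappaB decamer on either strand, each sequence is written 5' to 3' along the gene, and positions count back from the start site.
Sdc4 (chr2:164443189-164443438, minus strand): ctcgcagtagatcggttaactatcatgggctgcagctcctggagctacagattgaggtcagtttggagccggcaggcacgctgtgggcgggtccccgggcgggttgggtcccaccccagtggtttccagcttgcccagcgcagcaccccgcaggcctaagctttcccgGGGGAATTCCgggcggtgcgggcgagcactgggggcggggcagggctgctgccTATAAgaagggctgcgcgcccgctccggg
Sdc3 (chr4:130792287-130792536, plus strand): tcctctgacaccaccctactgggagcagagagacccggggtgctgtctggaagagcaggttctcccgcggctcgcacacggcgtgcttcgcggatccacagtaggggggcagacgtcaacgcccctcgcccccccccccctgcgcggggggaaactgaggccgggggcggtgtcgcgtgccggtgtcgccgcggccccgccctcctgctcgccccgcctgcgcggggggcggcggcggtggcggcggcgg
Gpc5 (chr14:115091965-115092214, plus strand): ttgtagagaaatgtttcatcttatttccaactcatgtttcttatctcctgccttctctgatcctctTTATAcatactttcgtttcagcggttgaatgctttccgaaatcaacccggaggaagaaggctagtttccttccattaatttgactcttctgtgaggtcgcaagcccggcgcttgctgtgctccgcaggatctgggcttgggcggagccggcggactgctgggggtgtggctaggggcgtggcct
The Sdc4 window ends at the RefSeq start site and lies inside the span of the gene in GENCODE, whose 5' end at 164443887 belongs to another transcript, so it is upstream of the RefSeq start only. It held TATAA at -29 to -25 and the NF-kappaB match GGGGAATTCC at -82 to -73. The Sdc3 window held none of the 3 motifs, and the Gpc5 window held TATAA on the opposite strand at -184 to -180. GGGCGG, the GC box, occurred at 4 places in the Sdc4 window, 3 in the Sdc3 window and 1 in the Gpc5 window. Among 32851 promoter windows of the same length, 22.8% held TATAA, 4.65% the NF-kappaB decamer, 6.75% TGANTCA and 32.7% GGGCGG. These are letter matches only.

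The called cells numbered 4808 and 5002 in the GL261 pair and between 4264 and 7275 in GL261-GSCs, with 33320530 to 79472306 UMIs in cells per library. Cells held a median of 15478 UMIs and 13652 UMIs in the GL261 pair and 15374, 11889.5, 10638 and 6670.0 in GL261-GSCs replicates 1 to 4. Replicate 4 was the shallowest library and had 41.2% of its UMIs in cells, against 56.7% to 65.7% in the other 5. Libraries shared 32 to 59 called barcodes per pair, most pairs somewhat more than random draws would give. The pair furthest above that number was GL261 replicate 1 with GL261-GSCs replicate 4, at 41 shared barcodes where random draws give 29.4. Among the GL261-GSCs libraries, replicates 1 and 2 differed from 3 and 4, for example in Syt1, a synaptic vesicle gene, at 1.15 and 12.4 CPM against 51.5 and 78.1 CPM (UMIs relative to the TMM-scaled library size). The 4 markers of mural cells and fibroblasts were each detected in at least 1 library. They summed to 487 and 573 CPM in the GL261 pair and 12 to 26.7 CPM in GL261-GSCs. Nearly all of the GL261 sum was Col1a1 (247 and 282 CPM) and Acta2 (235 and 286 CPM). Rgs5 went the other way, at 0 CPM in both GL261 libraries. It was found only in GL261-GSCs replicates 1 and 2, at 0.197 CPM or less. The 5 oligodendrocyte precursor markers, all detected, summed to 505 and 563 CPM against 1290.5 to 2299 CPM. Of these, Olig1, Olig2 and Pdgfra were higher in all 4 GL261-GSCs libraries, Sox10 overlapped (330.5 and 358 CPM against 304 to 382 CPM), and Cspg4 had 164 and 200.2 CPM against 67.2, 83.2, 148 and 209 CPM. The 3 detected of 4 astrocyte markers summed to 7.85 and 8.50 CPM against 61.2 to 85.7 CPM. Of those 3, Slc1a3 was higher in GL261-GSCs (0.163 and 0 CPM against 61.1 to 85.7 CPM), while Aldh1l1 (7.11 and 6.49 CPM against at most 0.0152 CPM) and Gfap (1.23 and 1.36 CPM against at most 0.0549 CPM) were lower. The 6 microglia and macrophage markers summed to 13.2 and 13.0 CPM in GL261, nearly all of it Csf1r, against 0.275 to 0.814 CPM in GL261-GSCs (Csf1r 12.9 and 12.6 CPM against 0.192 to 0.243 CPM). The 3 neuronal markers summed to 0.0148 and 0.0331 CPM against 1.15 to 78.1 CPM, nearly all of it Syt1. Cldn5 of endothelial cells, Rbfox3 of neurons, Aqp4 of astrocytes and Hbb-bs of red cells had no UMI in called cells. The oligodendrocyte marker sum overlapped between the groups (172 and 268 CPM against 163 to 235 CPM), with Mbp at 142 and 237 CPM against 34.5 to 70.5 CPM and Mog at 0.977 and 0.563 CPM against 19.6 to 70.1 CPM. The other sums given moved with the groups, and the part of the markers in the differences given here was not tested.

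Between the groups, Gpc1 and Sdc4 were lower in GL261-GSCs, and Sdc2, Sdc3 and Gpc5 were higher. Sdc4 showed the largest fold difference of the 7 genes tested, 41.2-fold lower, and Gpc1 was 4.19-fold lower. Sdc2 and Sdc3 were 1.89-fold and 2.27-fold higher, while Gpc5 was 7.50-fold higher from very few UMIs. Gpc6 and Sdc1 did not pass the test, and Gpc2, Gpc3 and Gpc4 were at or next to 0 everywhere. In this comparison edgeR's quasi-likelihood test, at an adjusted p under 0.05, called 29.9% of all 18439 genes tested, 15.8% as higher and 14.1% as lower. The 5 called members, 3 higher and 2 lower, stand against that background, on which a call is common. Among them, Gpc5 entered the test only through its GL261-GSCs counts.

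**Figure D1:**
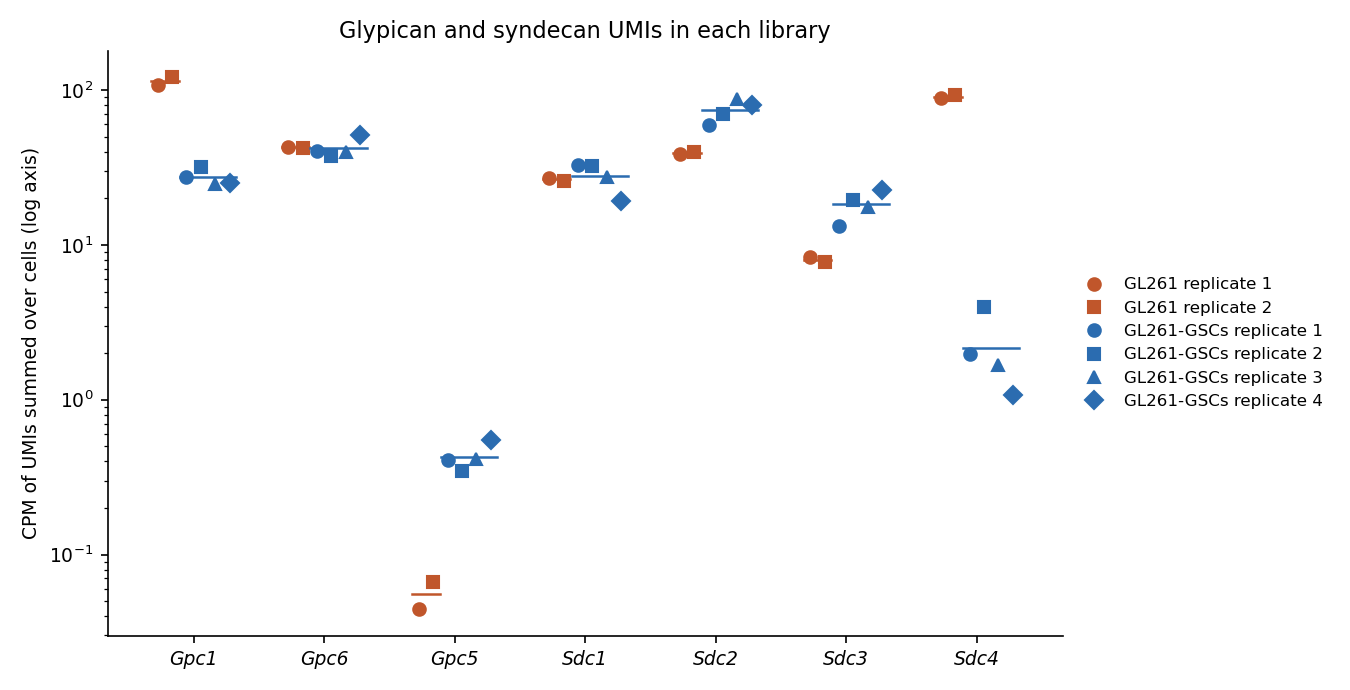
CPM of UMIs summed over called cells (log axis) for the 7 glypican and syndecan genes tested, 1 point per library with a line at each group's mean. The GL261 points of Gpc1 and Sdc4 lie above all 4 GL261-GSCs points, those of Gpc5, Sdc2 and Sdc3 below them, and the groups overlap for Gpc6 and Sdc1; Gpc2, Gpc3 and Gpc4 are not drawn because they had at most 1 UMI in cells.

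Gpc1 encodes glypican-1, a co-receptor for FGF2 (chromosome 1, 92831645 to 92860779, plus strand, in GRCm38). It stood at 108 and 121 CPM in the GL261 libraries and at 27.5, 31.8, 24.9 and 25.1 CPM in GL261-GSCs replicates 1 to 4. Both GL261 libraries were far above every GL261-GSCs library, with means of 115 ± 9.52 CPM (SD, n = 2) and 27.3 ± 3.19 CPM (SD, n = 4). The log2 fold change, GL261-GSCs over GL261, was -2.07 (SE 0.14, 95% interval -2.40 to -1.74), with an edgeR adjusted p of 1.80e-04. The values rest on 14618 and 7024 UMIs.

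Gpc6 lies beside Gpc5 on chromosome 14 (116925315 to 117976544, plus strand) and encodes a glypican known from limb skeletal development and from astrocyte signals to synapses. Its level was 43.2 and 42.3 CPM in the GL261 pair and 40.7, 37.6, 40.0 and 51.1 CPM in GL261-GSCs replicates 1 to 4. The groups overlapped, and replicate 4 was the highest of the 6 libraries. Its log2 fold change was -0.01, with a 95% interval of -0.38 to 0.35 and an edgeR adjusted p of 0.952. A change of up to 1.28-fold upward or down to 0.767-fold lies within that interval.

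Gpc5 (chromosome 14, 115092215 to 116525179, plus strand) encodes a glypican that binds Hedgehog proteins and is known from rhabdomyosarcoma. It had 3 and 4 UMIs in the GL261 libraries and 27, 25, 33 and 20 in GL261-GSCs replicates 1 to 4. These are 0.0444 and 0.0662 CPM against 0.409, 0.345, 0.413 and 0.549 CPM, and the groups did not overlap. On the log2 scale the fold change was 2.91 (SE 0.43, edgeR adjusted p = 0.00360), and its 95% interval spans 3.68-fold to 15.3-fold. The gene passed the filter on low counts only through GL261-GSCs, the group where it was higher, so the call is weak support for a difference. With no filter on low counts the log2 fold change was 2.90 (edgeR adjusted p = 0.00217). Even in GL261-GSCs the gene was seen in at most 0.610% of cells at full depth.

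The other glypicans were not detected beyond 1 UMI. Gpc2, a glypican of developing neurons (chromosome 5, 138273655 to 138280005, minus strand), had 1 UMI, in GL261-GSCs replicate 1, over all barcodes of all libraries. The annotated gene Gm43720 overlaps it on the same strand over 6304 of its 6351 bases, so the assignment of reads in shared exons is uncertain. Gpc3, a Hedgehog inhibitor and liver tumour marker, and Gpc4, which acts in Wnt signalling, are neighbours on the X chromosome (52272426 to 52613950 and 52053021 to 52165252, both on the minus strand). Both were listed at 0 in every barcode of every library. In called cells, 0 UMIs in a library allow up to 0.0375 CPM in GL261-GSCs replicate 3, the deepest, and up to 0.0824 CPM in replicate 4, the shallowest. These limits cover counting error only, and hold only if reads of the genes could be counted. Whether the 0 values come from the counting reference, the cell line or the expression of the genes cannot be told apart from the files. Both genes lie in a run of 16 annotated genes at 0, from 51840083 to 52744960, found by extending outward from them. Of the 16, 3 are protein-coding, Gpc3 and Gpc4 included, and 8 encode miRNAs. Of all protein-coding genes on the X chromosome, 24.5% had no UMI, against 14.4% over all chromosomes, and Phf6 and Hprt, which lie further along the X chromosome, had 15633 and 49602 UMIs.

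Among the syndecans, Sdc4 encodes syndecan-4, a component of focal adhesions that binds fibronectin and activates protein kinase C alpha (chromosome 2, 164424247 to 164443887, minus strand). It stood at 88.4 and 92.5 CPM in the GL261 pair and at 1.97, 3.95, 1.68 and 1.07 CPM in GL261-GSCs replicates 1 to 4. No GL261-GSCs library came near the GL261 level, and replicate 2 was the highest of the 4. Its log2 fold change was -5.37 (SE 0.45, 95% interval -6.44 to -4.29, edgeR adjusted p = 4.08e-04). The UMIs numbered 11553 in the GL261 pair and 589 in GL261-GSCs.

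Sdc2 encodes syndecan-2, a syndecan of mesenchymal cells and of dendritic spines (chromosome 15, 32920723 to 33034935, plus strand). It measured 38.8 and 39.7 CPM in the GL261 pair and 59.3, 70.1, 87.3 and 80 CPM in GL261-GSCs replicates 1 to 4. All 4 GL261-GSCs libraries were above both GL261 libraries, and replicates 3 and 4 above replicates 1 and 2. The log2 fold change was 0.92 (SE 0.18, edgeR adjusted p = 0.0103), with group means of 39.3 ± 0.650 CPM (SD, n = 2) and 74.2 ± 12.2 CPM (SD, n = 4).

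Sdc3, the neural syndecan that binds pleiotrophin (chromosome 4, 130792537 to 130826319, plus strand), had 8.35 and 7.75 CPM in GL261. In GL261-GSCs replicates 1 to 4 it had 13.2, 19.6, 17.6 and 22.8 CPM. The groups did not overlap, and the log2 fold change was 1.19 (SE 0.24, edgeR adjusted p = 0.0121). Gm12970 and Gm26716, annotated on the opposite strand, had 2 and 22 UMIs over all barcodes, against 9674 for Sdc3.

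Sdc1 encodes syndecan-1, the main syndecan of epithelial and plasma cells (chromosome 12, 8771323 to 8793715, plus strand). Its level was 27.2 and 25.8 CPM in the GL261 pair and 33.0, 32.5, 27.4 and 19.2 CPM in GL261-GSCs replicates 1 to 4. The GL261-GSCs libraries lay on both sides of the GL261 pair. A log2 fold change of 0.08 was fitted, with a 95% interval of -0.47 to 0.63 and an edgeR adjusted p of 0.817. Without GL261-GSCs replicates 1 and 2 it was -0.16 (adjusted p = 0.460), and without replicates 3 and 4 it was 0.31 (adjusted p = 0.0525).

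Leaving out 1 GL261 library leaves a single library in that group, assumed to vary like the others. Without GL261 replicate 1, edgeR called Gpc1 and Sdc4 but not Gpc5 (adjusted p = 0.0542), Sdc2 (0.0993) or Sdc3 (0.0914), and the count over all genes fell from 5514 to 1972. Without GL261 replicate 2 it called Gpc1, Sdc4 and Gpc5 but not Sdc2 (adjusted p = 0.0965) or Sdc3 (0.115), with 1817 genes called in all. Without GL261-GSCs replicates 1 and 2, or without 3 and 4, the same 5 genes passed, with Sdc4 at -5.95 and -4.92, Gpc1 at -2.17 and -1.94, Sdc2 at 1.11 and 0.73, Sdc3 at 1.34 and 1.04, and Gpc5 at 3.07 and 2.74 on the log2 scale.

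The make-up of the UMIs of the 10 genes differed accordingly. Glypican UMIs summed to 151 and 164 CPM in the GL261 pair and to 68.6, 69.8, 65.3 and 76.8 CPM in GL261-GSCs replicates 1 to 4. Syndecan UMIs summed to 163 and 166 CPM against 107, 126, 134 and 123 CPM. Syndecans thus held 51.8% and 50.3% of the UMIs of the 10 genes in the GL261 pair and 61.0% to 67.2% in GL261-GSCs. Sdc4 alone went from 28.2% and 28.1% of them to between 0.536% and 2.01%, and Sdc2 from 12.4% and 12.1% to between 33.7% and 43.8%. These sums restate the differences of the single genes and were not tested.

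Shares of cells were compared after each cell was thinned to 2000 UMIs, so that depth was equal, which left out no cell. A UMI of Gpc1 was found in 18.6% and 19.2% of GL261 cells and in 6.64%, 7.04%, 5.21% and 5.54% of GL261-GSCs cells in replicates 1 to 4. For Sdc4 the shares were 14.5% and 15% against 0.258%, 0.784%, 0.426% and 0.310%. In both genes the level and the share of cells were lower in GL261-GSCs. At full depth, Sdc4 UMIs were found in 58.8% and 57.0% of GL261 cells and in 2.70%, 4.07%, 1.80% and 0.776% of GL261-GSCs cells.

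The share of thinned cells with an Sdc2 UMI was 7.43% and 7.10% in the GL261 pair and 12.5%, 14.1%, 16.5% and 17.3% in GL261-GSCs replicates 1 to 4. For Sdc3 it was 1.44% in both GL261 libraries and 2.58%, 4.53%, 4.10% and 5.47% in GL261-GSCs. Both were above every GL261 value in all 4 libraries, while Gpc6 and Sdc1 overlapped at 2000 UMIs per cell. Gpc6 was found in 9.32% and 7.92% of GL261 cells and 9.19%, 8.26%, 9.13% and 14.3% of GL261-GSCs cells, and Sdc1 in 5.10% and 4.24% against 6.36%, 6.64%, 4.96% and 3.81%. At 2000 UMIs per cell the groups did not overlap for Gpc1, Gpc5, Sdc2, Sdc3 and Sdc4. For Gpc5 that rests on 1 and 0 cells in the GL261 pair and 3, 3, 9 and 8 cells in GL261-GSCs replicates 1 to 4. Replicates 1 and 2 thus had no more than the 3 counts that a 0 allows. The exact binomial interval of each GL261-GSCs library overlapped that of GL261 replicate 1, so the Gpc5 shares are weak support for a difference. For each gene without overlap the 2-sided exact permutation p was 0.133, the smallest that 2 libraries against 4 allow (0.267 after Benjamini-Hochberg adjustment over 10 genes). No share could therefore pass 0.05. By CPM of summed UMIs, a different measure, the groups did not overlap for 56.7% of all genes tested. For shares of cells no such figure over all genes was computed.

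Free RNA in droplets can add UMIs to cells that do not express a gene. From the make-up of barcodes with 100 to under 1000 UMIs, it would give Sdc4 UMIs to 0.0277% to 0.0432% of thinned GL261-GSCs cells, below the 0.258% to 0.784% found. For Sdc2 it would give at most 2.09%, in GL261-GSCs replicate 4, where 17.3% was found. There is no cell type without these genes in the libraries to set beside the shares.

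**Figure D2:**
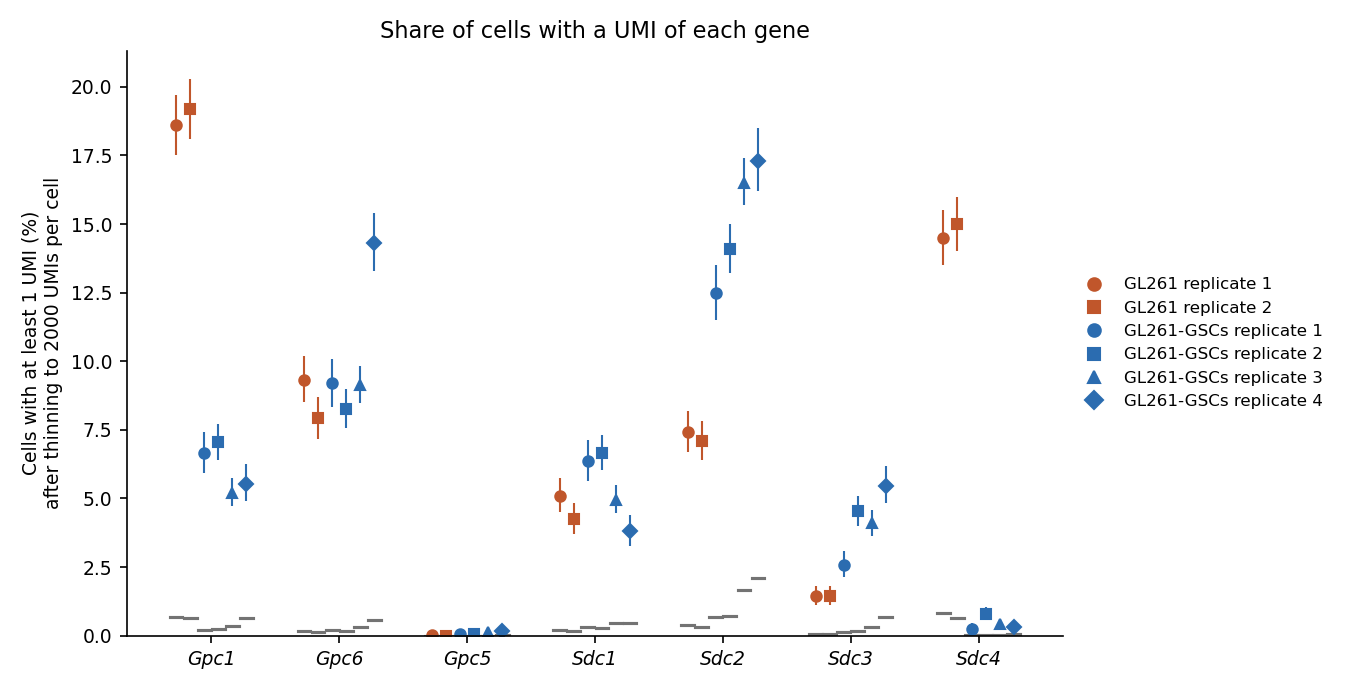
Percentage of cells in which a gene had 1 UMI or more after thinning to 2000 UMIs per cell, 1 point per library with its exact 95% binomial interval (counting error only). Grey dashes give the share that free RNA alone would give; the GL261-GSCs points of Sdc4 lie between 0.258% and 0.784%, the GL261 points at 14.5% and 15%.

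Within single cells, a glypican UMI together with a syndecan UMI was found in 7.15% and 6.58% of thinned GL261 cells. In GL261-GSCs replicates 1 to 4 the share was 3.68%, 4.02%, 3.92% and 5.05%. Any glypican UMI was found in 26.4% and 25.2% of GL261 cells and 13.9% to 19.0% of GL261-GSCs cells. Any syndecan UMI was found in 25.7% and 25.5% against 20.4% to 24.9%. The joint share depends on both of these shares, and whether the families go together within cells was not tested. Cells with no UMI of any of the 10 genes made up 55.1% and 55.9% in the GL261 pair and 68.3%, 65.5%, 65.8% and 61.1% in GL261-GSCs. At 2000 UMIs per cell most cells gave no molecule of either family.

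The enzymes and partners that give these proteoglycans their chains and binding were described from a list of 62 heparan sulfate genes, of which 46 were tested. Called were 17 genes, 37.0% of those tested, 4 higher and 13 lower in GL261-GSCs, beside 29.9% over all genes. The median log2 fold change of the 46 was -0.11, and over all genes 0.04. Without GL261-GSCs replicates 1 and 2 the list had 29 called genes, and over all genes 9881 of 17995 were called. Without GL261 replicate 1 the list had 10 called genes, 0 higher and 10 lower, beside 1972 of 19112 over all genes, and without GL261 replicate 2 it had 10, 1 higher and 9 lower, beside 1817 of 19544, so the list's count moved in the same direction as that of all genes. Genes called but outside the naming rule are given because few were called per group, and were chosen after their values were seen. Genes of the list that were not called are given as examples, also outside that rule.

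The 7 enzymes that build and modify the linker tetrasaccharide, from the xylosyltransferases Xylt1 and Xylt2 to the kinase Fam20b, included no called gene. Their log2 fold changes ran from -0.72 for B3galt6 (adjusted p = 0.105) to 0.84 for Pxylp1 (adjusted p = 0.0907) in edgeR. Of the 5 chain polymerase genes 1 was called. Extl1, an exostosin-like glycosyltransferase, fell from 0.977 and 1.18 CPM to between 0.175 and 0.394 CPM (log2 fold change -2.02, SE 0.37, adjusted p = 0.00764), and without GL261 replicate 2 its adjusted p was 0.0785. Ext1 and Ext2, the polymerase itself, had log2 fold changes of 0.04 (adjusted p = 0.832) and -0.14 (adjusted p = 0.669).

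Of the 16 epimerase and sulfotransferase genes 7 were tested and 1 called. Ndst1, an N-deacetylase and N-sulfotransferase that starts sulfation of the chain, fell from 16.0 and 16.6 CPM to between 4.45 and 5.25 CPM (log2 fold change -1.75, SE 0.16, edgeR adjusted p = 5.37e-04). Ndst2, of the same enzyme family, had a log2 fold change of 0.52 (adjusted p = 0.285). Its levels were 8.68 and 9.34 CPM in the GL261 pair and 8.43 to 17.2 CPM in GL261-GSCs. The median log2 fold change of the 7 tested genes was 0.52. Hs6st2, Hs6st3, Hs3st2 and Hs3st3a1 had no UMI in called cells. Of the 5 genes that supply precursors 2 were called, both lower. Papss2, which makes the sulfate donor PAPS, fell from 5.10 and 5.51 CPM to between 0.515 and 1.13 CPM (log2 fold change -2.86, SE 0.33, adjusted p = 0.00136). Ugdh, which makes UDP-glucuronic acid, had a log2 fold change of -1.12 (adjusted p = 0.0169; 0.0933 without GL261 replicate 1 and 0.112 without replicate 2), while Papss1, the other PAPS synthase gene, had -0.31 (adjusted p = 0.246).

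Among 8 genes that edit chains or release ectodomains 5 were tested, with 1 called higher and 2 lower. Sulf2, an extracellular sulfatase that removes 6-O-sulfate, rose from 17.8 and 25.5 CPM to between 35.8 and 97.0 CPM (log2 fold change 1.73, SE 0.44, edgeR adjusted p = 0.0253). That call was lost without GL261 replicate 1 (adjusted p = 0.103), GL261 replicate 2 (0.187) or GL261-GSCs replicate 3 (0.0557), and the log2 fold change was 1.17 without GL261-GSCs replicates 3 and 4. Mmp14, a membrane metalloprotease that can shed syndecans, fell from 50.0 and 51.9 CPM to between 5.71 and 20.6 CPM (log2 fold change -1.95, SE 0.54, adjusted p = 0.0347). It did not pass without GL261 replicate 1 or 2 (adjusted p = 0.148 each) or GL261-GSCs replicate 3 (0.0639), and its log2 fold change was -3.03 without GL261-GSCs replicates 1 and 2 and -1.33 without 3 and 4. Adam10, another sheddase, had a log2 fold change of -1.43 (adjusted p = 9.51e-04) and Adam17 one of 0.13 (adjusted p = 0.475). Sulf1 had no UMI in called cells.

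All 7 syndecan partner genes were tested, and 5 were called, 2 higher and 3 lower. Actn4, the actin crosslinker alpha-actinin-4, fell from 645 and 689 CPM to between 78.9 and 95.7 CPM (log2 fold change -2.93, SE 0.13, edgeR adjusted p = 4.38e-05). Prkca, the protein kinase C that syndecan-4 activates, had a log2 fold change of -1.56 (adjusted p = 0.00101), and Sdcbp2, which encodes syntenin-2, had -1.36 (adjusted p = 0.0425). Sdcbp2 had only 54 UMIs in the GL261 pair and 41 in GL261-GSCs, and the related gene Sdcbp had -0.35 (adjusted p = 0.0513). Among the alternatives, Sdcbp2 passed only with DESeq2 size factors in edgeR, every barcode of at least 1000 UMIs and all barcodes. Sdcbp2 missed the threshold without any 1 of the 6 libraries (adjusted p from 0.0649 to 0.435) and by DESeq2 (0.0931) and limma-voom (0.0603). Tiam1, a Rac exchange factor whose PDZ domain binds syndecan-1, rose from 10.1 and 10.2 CPM to between 15.1 and 32.6 CPM (log2 fold change 1.25, SE 0.32, adjusted p = 0.0276). It did not pass without GL261 replicate 1 (adjusted p = 0.163), GL261 replicate 2 (0.165) or GL261-GSCs replicate 3 (0.0525). Cask, a PDZ scaffold that binds syndecan-2, had a log2 fold change of 0.97 (adjusted p = 0.0110), which did not pass without GL261 replicate 1 (0.114) or replicate 2 (0.0757).

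Of the 5 other heparan sulfate proteoglycan genes 3 were tested and 2 called, both lower. Col18a1, the basement membrane collagen that carries heparan sulfate, fell from 193 and 202 CPM to between 2.78 and 18.9 CPM (log2 fold change -4.33, SE 0.76, edgeR adjusted p = 0.00696). Its log2 fold change was -6.02 without GL261-GSCs replicates 1 and 2 and -3.57 without 3 and 4. Hspg2, which encodes perlecan, had a log2 fold change of -2.36 (adjusted p = 4.85e-04), and Agrn, which encodes agrin, had -0.23 (adjusted p = 0.503).

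Of 9 genes for heparin-binding ligands 7 were tested, with 1 called higher and 2 lower. Ptn, which encodes pleiotrophin, the ligand bound by syndecan-3, rose from 1.11 and 2.07 CPM to between 39.0 and 335 CPM (log2 fold change 7.08, SE 1.12, edgeR adjusted p = 0.00460). Its adjusted p without GL261 replicate 1 was 0.0537, and its log2 fold change was 7.73 without GL261-GSCs replicates 1 and 2 and 5.99 without 3 and 4. Fgf2, a growth factor that needs heparan sulfate to bind its receptor well, fell from 14.9 and 16.0 CPM to between 0.275 and 1.10 CPM (log2 fold change -4.56, SE 0.45, adjusted p = 7.32e-04). Hbegf, a heparin-binding ligand of the EGF receptor, had a log2 fold change of -3.44 (adjusted p = 9.58e-05). Vegfa, which encodes an angiogenic growth factor, had a log2 fold change of 1.74 (adjusted p = 0.162), with GL261-GSCs libraries between 18.2 and 126 CPM.

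**Figure D3:**
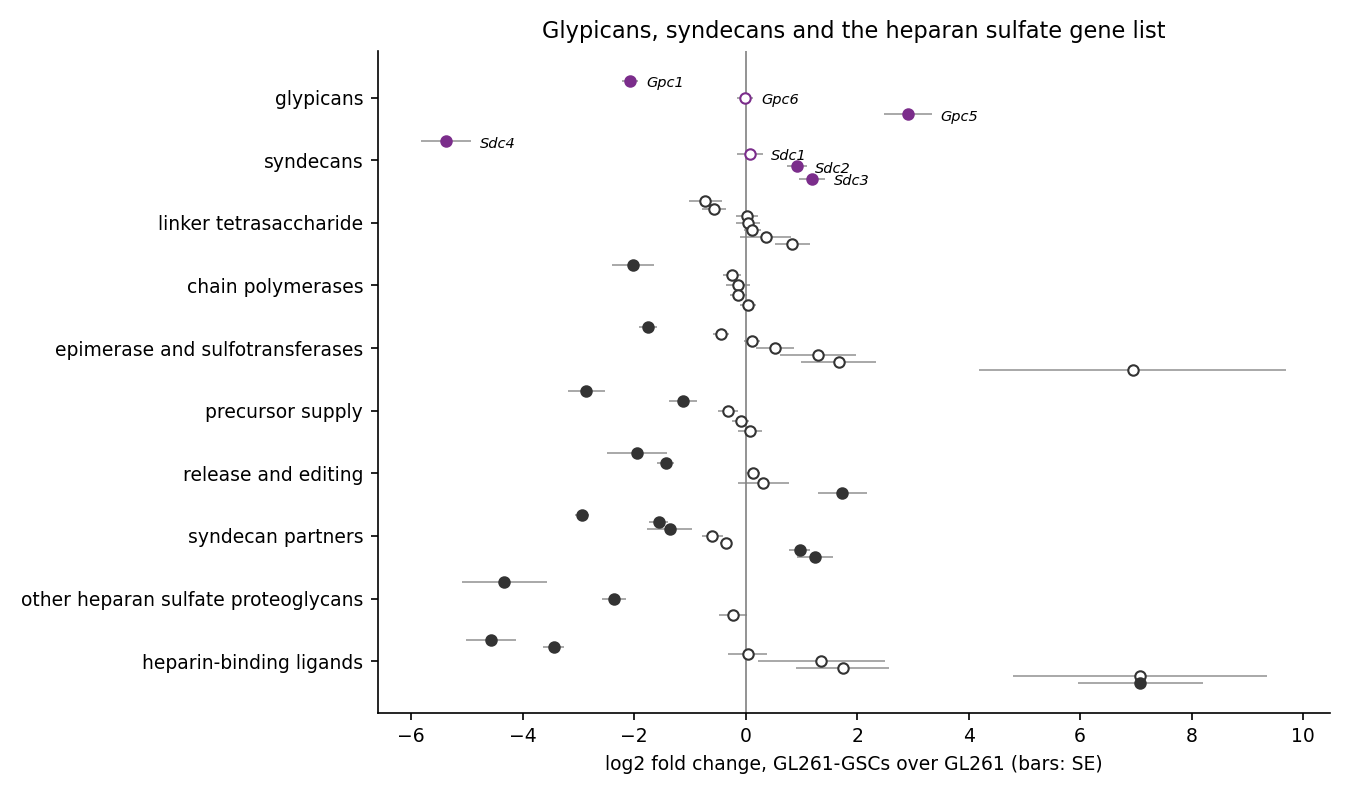
Log2 fold change (GL261-GSCs over GL261) with its SE for the 7 glypican and syndecan genes tested (purple, named) and the 46 tested heparan sulfate genes by group (black), filled where the edgeR adjusted p was under 0.05. Filled points lie on both sides of 0 among glypicans and syndecans, all 7 linker enzymes are open, and Sdc4 lies furthest left at -5.37.

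The 10 genes were next compared between cells of different cell cycle content in the same library. In each library the 20% of cells with the highest share of UMIs from 20 G2/M genes were called G2/M-high; 4.19% to 8.96% of cells lay within 10% of that boundary, so the class is a range and not a type. UMIs were summed per class and library, and the edgeR fit held the library as a block. Of 16106 genes tested, 12.1% were called in GL261 (5.20% as higher and 6.89% as lower in G2/M-high cells) and 30.7% in GL261-GSCs (15.3% and 15.5%). For the difference between the groups 0.304% were called, 0.174% with a higher value in GL261-GSCs and 0.130% with a lower one.

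Sdc1 was lower in G2/M-high cells in all 6 libraries, at 21.5 against 28.7 CPM and 18.8 against 27.4 CPM in GL261. In GL261-GSCs replicates 1 to 4 the values were 29.6 against 33.5, 27.2 against 33.7, 21.9 against 28.8 and 16.7 against 20.1 CPM. The log2 fold change, G2/M-high over other cells, was -0.48 in GL261 (SE 0.08, edgeR adjusted p = 0.00255) and -0.29 in GL261-GSCs (SE 0.06, adjusted p = 0.00248). In GL261 the call was lost without replicate 1 (adjusted p = 0.0582) or replicate 2 (0.105).

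Sdc2 was likewise lower in G2/M-high cells in all 6 libraries, with per-library log2 ratios from -0.36 to -0.14. In GL261 it had 31.7 against 40.7 CPM and 35.8 against 40.4 CPM, and in GL261-GSCs replicates 1 to 4 it had 54.3 against 59.9, 59.9 against 72.4, 76.9 against 90 and 71.6 against 83.1 CPM. The log2 fold change was -0.27 in GL261 (SE 0.07, edgeR adjusted p = 0.0330) and -0.22 in GL261-GSCs (SE 0.05, adjusted p = 0.00504). With only the top 10% of cells in the class, neither passed (adjusted p = 0.0558 and 0.139), and the GL261 call was also lost without replicate 1 (0.514) or replicate 2 (0.12).

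Gpc6 lay the other way. It was higher in G2/M-high cells in GL261-GSCs, by a log2 fold change of 0.21 (SE 0.06, edgeR adjusted p = 0.0174), with ratios of 0.35, 0.16, 0.28 and 0.01 in replicates 1 to 4. Without replicate 1 or 3 the adjusted p was 0.111 or 0.102. In GL261 the value was 0.19 (SE 0.08, adjusted p = 0.156). Sdc3 had negative ratios in all 6 libraries but did not pass in GL261 (-0.36, adjusted p = 0.124) or GL261-GSCs (-0.19, adjusted p = 0.101), except with no filter on low counts (adjusted p = 0.0374 and 0.0394). Gpc1, Gpc5 and Sdc4 did not pass in either group.

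The difference between the groups in these class contrasts was called for none of the 7 genes by edgeR. The smallest unadjusted p was 0.0305 for Gpc1 (adjusted p = 0.400), whose log2 fold change was -0.16 in the GL261 pair and 0.07 in GL261-GSCs. G2/M-high cells also had more UMIs, with medians of 16746 against 15188 and 14865 against 13387 in GL261 and higher medians in each GL261-GSCs library, and the part of depth in the class differences was not tested.

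**Figure D4:**
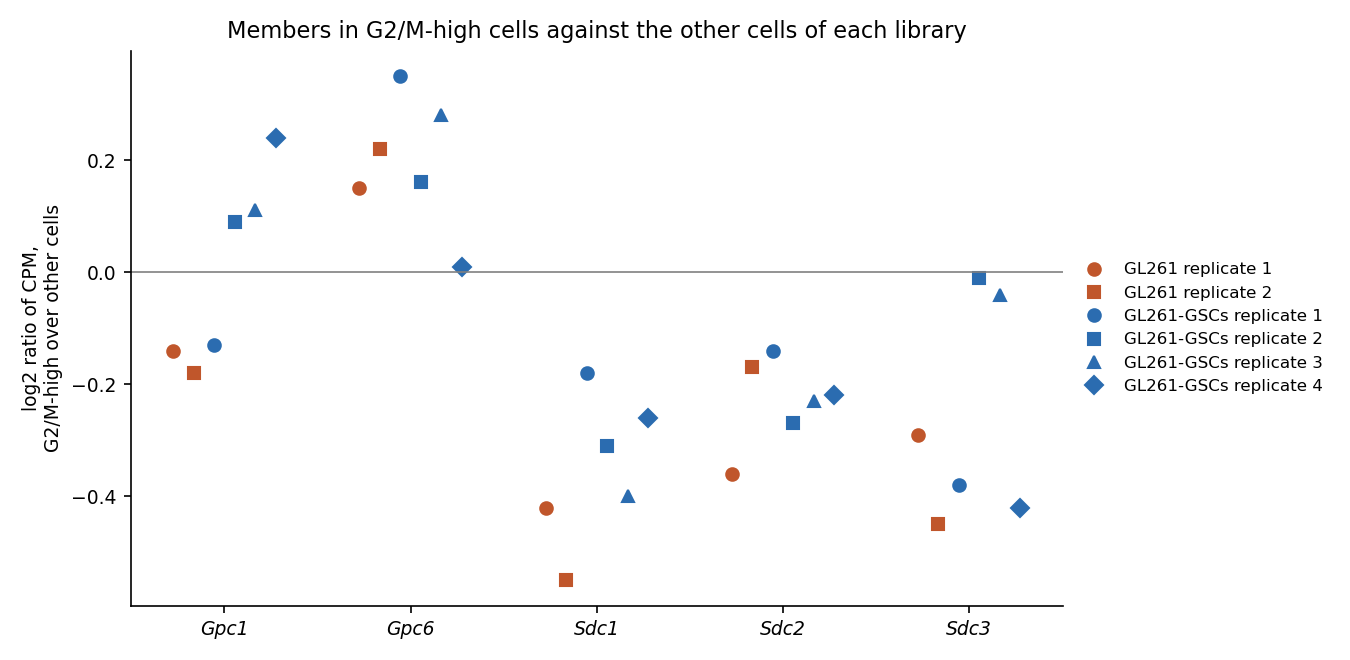
Log2 ratio of CPM in G2/M-high cells over the other cells of the same library for 5 genes, 1 point per library. All 6 points lie below 0 for Sdc1, Sdc2 and Sdc3 and above 0 for Gpc6 (0.01 in GL261-GSCs replicate 4); Gpc5 and Sdc4 are not drawn, since few UMIs in some libraries widen their ratios.

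The genes whose pattern over the 6 libraries was most like that of Gpc1 were found by Pearson's r of log2(CPM + 1) among 5316 genes with an average log2 CPM of at least 5. They were Rbms1 (r = 0.9997), Prkci (r = 0.9987) and Tpm4 (r = 0.9984). For Sdc2 they were Tubb4a (r = 0.9972), Prkd3 (r = 0.9968) and Hsp90ab1 (r = 0.9964). The 6 points fall into 2 groups of libraries, and 791 genes had an r over 0.9 with Gpc1 and 578 with Sdc2, so many genes share these patterns.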

How the data were processed

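Cells of GL261 (2 libraries) and GL261-GSCs (4 libraries) were profiled by single-cell RNA sequencing. The authors deposited unfiltered UMI counts per gene and barcode, made with Cell Ranger 4 per the file headers, on mm10 per the submitters' processing notes; the values are raw counts. Whether counting used strand: not given in the sources used here. A barcode was called a cell at 10% of the 99th percentile of the 3000 largest barcodes, with at least 500 genes and under 10% mitochondrial UMIs; no doublet caller was run. Counts were summed per library and tested with edgeR 4.0.16 (glmQLFit and glmQLFTest, TMM, filterByExpr, no block, 2-sided, Benjamini-Hochberg over all genes) in R 4.3.3. The SE is the absolute log2 fold change over the square root of F. Shares of cells have exact Clopper-Pearson 95% intervals and were compared by exact permutation over 15 splits; a 0 allows up to 3 counts. The group and class fits were also run on simulated data with planted changes, which checks the code and not the error rate in these data. Alternatives were DESeq2 1.42.0, limma-voom (limma 3.58.1), other scalings, filters, cell calls and libraries left out.

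The 10 genes and all lists were chosen with earlier results of these data known. Named by rule were the 10 genes, the largest called rise and fall in each group of the heparan sulfate list, and the 3 genes most like the glypican and the syndecan with the most UMIs summed over all 6 libraries. Other genes of the heparan sulfate list, called or not, were named outside that rule. Positions are from GENCODE M21 (GRCm38), which matched 54409 of 54446 gene IDs.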

Additional observations from a re-analysis of the deposited data

Results flagged for a closer look

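Dixon's test on the 4 GL261-GSCs libraries set 1 library apart for 2 of 25 values tested, where chance gives about 1 in 20. The highest library for Gpc2 was replicate 1, at 0.0152 CPM, which is its single UMI against 0 in the other libraries. The share of thinned cells with a Gpc6 UMI was highest in replicate 4, at 14.3%, against 9.19%, 8.26% and 9.13% in replicates 1 to 3. Replicate 4 was also the shallowest library, with a median of 6670.0 UMIs per cell, and had the highest Gpc6 level at 51.1 CPM; the part of depth in this value was not tested.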

How the results depend on the processing

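Between the groups, 5 members were called, 3 higher and 2 lower, under each of the 12 alternatives other than leaving out 1 library, among them DESeq2, limma-voom, other scalings and cell calls, and all barcodes. Leaving out 1 library gave 2 to 5 called members and 10 to 22 called heparan sulfate genes, with the lowest counts where a GL261 library was left out. The heparan sulfate count was 29 (12 higher, 17 lower) without GL261-GSCs replicates 1 and 2, an alternative chosen after seeing the data, under which the count over all genes rose from 5514 to 9881 (5171 higher, 4710 lower). Values near 0 changed sign: Gpc6 was 0.14 with library size scaling, 0.16 with every barcode of at least 1000 UMIs, 0.09 with all barcodes, 0.11 without GL261-GSCs replicates 1 and 2, and -0.09 to 0.06 with 1 library left out, and Sdc1 was -0.16 without GL261-GSCs replicates 1 and 2 (log2 fold changes). Sdc4 in G2/M-high GL261 cells ranged from -0.22 to 0.07 with 1 library left out. Not thinned, the differences in share were -4.78 percentage points for Gpc6 and -1.57 for Sdc1, with median UMIs per cell in 3 of 4 GL261-GSCs libraries below both GL261 libraries. Other causes were not tested. Mmp14 missed the threshold with the pairs of GL261-GSCs libraries summed (adjusted p = 0.0598). Over all genes tested, the median log2 fold change was 0.18 instead of 0.04 with library size scaling, which split the calls into 3491 higher and 2034 lower, against 2920 and 2594, and limma-voom gave 2666 and 2778. With the replicate block 5 members and 19 heparan sulfate genes were called, beside 6513 of 18439 genes in all against 5514 without it. Log2 fold changes were smaller in size for Ptn (5.75), Col18a1 (-3.59), Mmp14 (-1.34) and Sulf2 (1.13). GL261 has no replicate 3 or 4, so in that fit the group difference comes from replicates 1 and 2 alone. Leaving out GL261-GSCs replicates 3 and 4 gave nearly the same values for these genes (5.99, -3.57, -1.33 and 1.17). Deviations of same-numbered libraries from their group means correlated at -0.023 and 0.097. With 2 GL261 libraries the deviations of 1 mirror those of the other, so these values cannot show whether same-numbered libraries are paired. Gpc5 rests on 7 UMIs in GL261, so its fold change is imprecise.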
